A study of Mus musculus with 6 samples.

Results

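Long intergenic noncoding RNAs (lincRNAs) are transcripts that lie between protein-coding genes and carry no long reading frame. Some act in the nucleus on chromatin or on nuclear bodies, some regulate genes nearby on the same chromosome, and for many of the regions named only by their coordinates no function is known. They are usually less abundant than messenger RNAs and differ more between cell types. A probe to such a region detects whatever RNA hybridizes to its bases, so a region that runs along or into a gene can also report that gene's own transcript.

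The probes described here were every non-control probe of the mouse array whose gene name, systematic name or description contained the word lincRNA, and they numbered 16251 of 55681 probes in all. They were 60 bases long, with 8199 to the forward and 8052 to the reverse strand, and covered 3555 regions, of which 1067 were probed on both strands. The median region was 7328 bases wide and the median region strand had 3 probes, so probes of 1 region share their source and are not replicates. A probe was kept where some group had a signal well above background on each of its arrays, as 8752 did and 7499 did not. A further 92 were left out because every spot on an array was flagged, so 8660 were tested (53.3%), against 26154 of 39430 other probes (66.3%). The tested probes lay in 2873 regions, and 118 of the 16251 had no position in the files.

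All samples were cultures of N18-CFMS cells. These are prostate tumor cells of the TRAMP mouse, in which the probasin promoter drives SV40 antigens in prostate epithelium. A single luciferase-expressing subclone of the TRAMP C2H line was transduced by retrovirus with murine c-fms, which encodes the receptor of colony-stimulating factor 1 (CSF-1), and was sorted for it, so every culture, controls included, carried the receptor and dihydrotestosterone was present in the medium. The groups were Control (vehicle), 24H CSF1 and 48H CSF1 (recombinant mouse CSF-1 at 100 ng/mL), with 2 arrays each. The times are those of the labels, and the methods describe shorter ones. The question was how CSF-1 signaling through a receptor placed in tumor cells changes their RNA, here their lincRNAs.

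Levels are normalised log2 signals, that is log2 of the processed signal minus the array's 75th percentile over all non-control spots, which itself lay at a signal of 550.3 to 610.9. No spot was saturated. Between 47.4% and 65.5% of the lincRNA probes were well above background per array, and the highest share was on 24H CSF1 replicate 1, the only array on a second slide. Csf1r, the receptor gene, lay at 4.88 to 5.34 on every array, with no call at either time. The epithelial label was only partly borne out: Krt8 was well above background on 6 arrays and Krt18 on 3, Epcam on 1, and Cdh1 on none, while the fibroblast collagens Col1a1 and Col1a2 were on 6. Of 10 macrophage symbols listed, Adgre1 had no probe under that name. Ptprc, Emr1, Itgam, Cd14 and Fcer1g were well above background on 6 arrays, Cd68 on 4, Tyrobp on 3, Aif1 on 2 and Lyz2 on none. None of the 6 tested was called. Krt8 was higher at 48 h, and of the 6 fibroblast genes tested 2 were higher and 2 lower at 24 h and 1 was higher and 3 lower at 48 h. The summed signal of the fibroblast genes, in multiples of the 75th percentile, was 321 to 324 on the control arrays, 136 to 145 at 24 h and 120 to 163 at 48 h, and that of the macrophage genes 43.5 to 48.8, 33.8 to 41.7 and 28.5 to 38.2. Such sums mostly follow the brightest genes, here Col1a1 and Col1a2 (mean levels 6.27 and 6.71) and Itgam (4.95). The median log2 fold changes at 24 h and 48 h were -0.127 and -0.349 over the fibroblast genes tested. Over the macrophage genes tested they were 0.38 and 0.102. The part of these genes in the lincRNA results was not tested. In bulk RNA, fewer cells that make an RNA and less of it per cell cannot be told apart, and although the methods speak of independent experiments, the labels do not tie the arrays to them, so the p-values measure only the spread between these arrays. For pairs of the same group, the median difference between arrays was 0.212 to 0.236 on the log2 scale for the lincRNA probes and 0.159 to 0.168 for the others.

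The sequences below are shown because 5 of the probes reveal how regions overlap in what they measure, and the other 4 belong to regions the results turn on. Each is written as the files list it, with the probe's position on mm9 and its strand. Capitals mark bases inside a stretch of 20 or more that another probe of the same set also holds. The first 3 probes come from a pair of lincRNA regions at Trim30c and follow each other along the reverse strand, so the middle one is covered entirely by its neighbours.
chr7:111530639-111530698, reverse: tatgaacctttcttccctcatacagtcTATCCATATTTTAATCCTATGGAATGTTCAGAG
chr7:111530612-111530671, reverse: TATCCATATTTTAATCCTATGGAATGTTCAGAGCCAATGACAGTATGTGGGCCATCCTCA
chr7:111530579-111530638, reverse: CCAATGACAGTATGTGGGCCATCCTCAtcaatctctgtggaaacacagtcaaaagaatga

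The next pair comes from separate regions of the Ifi200 gene cluster on chromosome 1, and shares 34 bases in a row.
chr1:175653734-175653793, reverse: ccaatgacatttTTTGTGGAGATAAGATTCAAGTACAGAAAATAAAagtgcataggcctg
chr1:175706588-175706647, reverse: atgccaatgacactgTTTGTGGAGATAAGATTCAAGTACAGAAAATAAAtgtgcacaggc

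The last 4 probes belong to a region beside Samd9l that was higher after CSF-1, to the file's NEAT2 (Malat1), and to regions at Gm2115 and on chromosome 9 that were lower.
chr6:3349368-3349427, reverse: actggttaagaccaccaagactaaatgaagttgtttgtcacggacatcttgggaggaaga
chr19:5795713-5795772, reverse: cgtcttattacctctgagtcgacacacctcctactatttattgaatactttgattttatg
chr7:91729691-91729750, forward: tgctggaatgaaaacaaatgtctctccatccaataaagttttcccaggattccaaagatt
chr9:68400194-68400253, forward: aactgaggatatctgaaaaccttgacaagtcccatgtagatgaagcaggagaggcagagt

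After CSF-1, 310 lincRNA probes rose and 62 fell at 24 h, and 145 rose and 59 fell at 48 h (limma over all 6 arrays, adjusted p under 0.05 over 34814 tested probes and at least 2-fold). At both times 111 rose and 24 fell, from 58 and 15 regions, and none went in opposite directions. Over all tested probes the shares called were 4.48% higher and 1.57% lower at 24 h, 3.6% and 1.37% at 48 h, and 2.69% and 0.807% at both times. The lincRNA probes stood below each of these, with 3.58% and 0.716% at 24 h, 1.67% and 0.681% at 48 h, and 1.28% and 0.277% at both times. Other probes of like brightness, taken in 5 bins of equal numbers of lincRNA probes, had 5.82% and 1.68% called at 24 h, 4.52% and 1.57% at 48 h, and 3.32% and 0.906% at both times. In the dimmest of these bins 9.01% of lincRNA probes and 11.2% of other probes were called higher at 24 h, and in the brightest 1.56% and 3.44%.

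The balance between higher and lower calls moved with the centring of the arrays. With each array centred on its median, 176 lincRNA probes were called higher and 188 lower at 24 h, 124 and 105 at 48 h, and 85 and 72 at both times. With quantile normalization the counts were 125 and 142, 113 and 74, and 79 and 36. Median centring moved the median of all tested probes from 0.0456 to -0.238 at 24 h and from -0.0459 to -0.145 at 48 h, and the median of the lincRNA probes from 0.123 to -0.161 and from -0.00908 to -0.109. Each count also rested on few arrays. At 24 h, 310 higher calls became 114 without the second-slide array, 80 without the other 24 h array, and 199 and 106 without Control replicate 1 and 2. At 48 h, 145 became 81, 69 and 91 without Control replicate 1, Control replicate 2 and 48H CSF1 replicate 1. Lower calls at 24 h went from 62 to 20 without Control replicate 2 and 18 without 24H CSF1 replicate 2, and at 48 h from 59 to 27 without Control replicate 2 and 33 and 35 without 48H CSF1 replicate 1 and 2. The 111 rises at both times became 48 to 71 whichever array was left out, and the 24 falls became 43 without Control replicate 1, 11 without Control replicate 2, 12 without 24H CSF1 replicate 2 and 15 without either 48 h array.

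**Figure D1:**
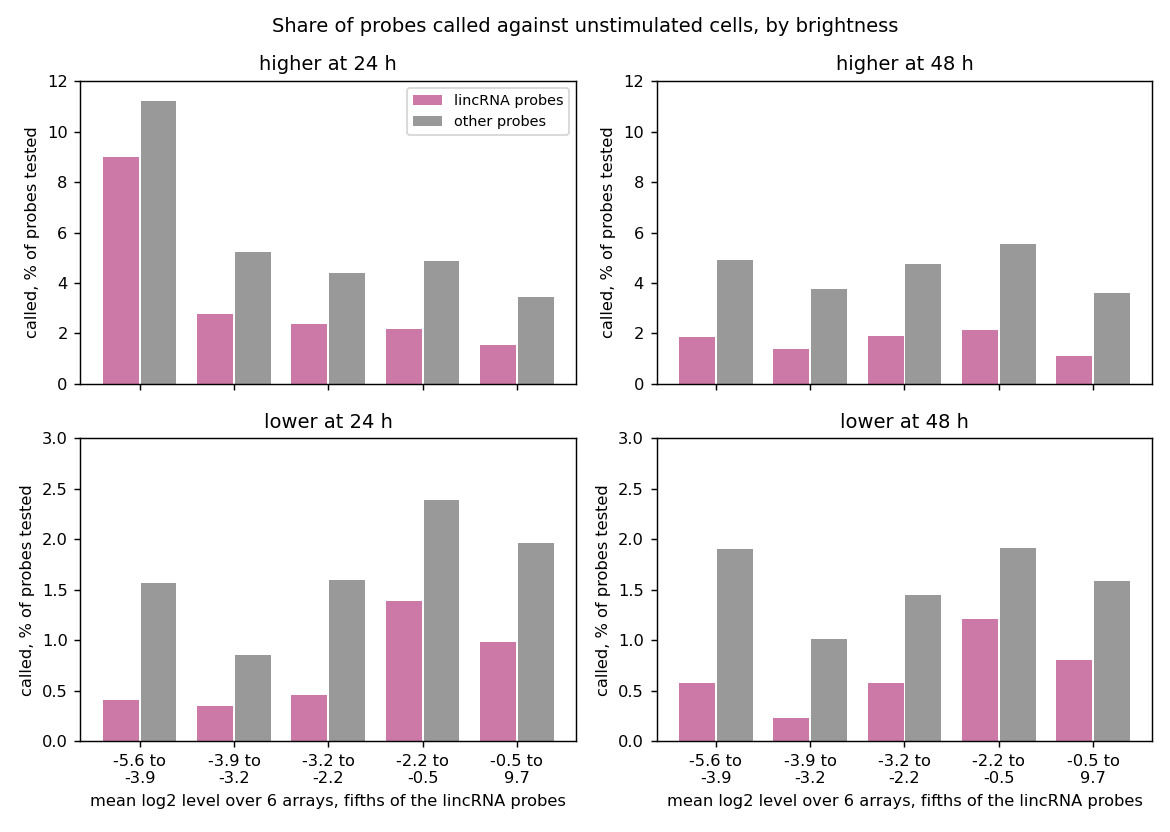
Bars give the share of tested probes called (percent, with a wider scale for the higher panels) in 5 bins of mean normalised log2 level over 6 arrays, for lincRNA and other probes at 24 h and 48 h. The lincRNA bar is the lower one in every bin, from 9.01% against 11.2% in the dimmest to 1.56% against 3.44% in the brightest bin of the calls higher at 24 h.

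Many of the calls at 24 h were of dim probes that 48 h did not share. Of the 310 higher at 24 h, 139 were well above background on neither control array and 45 on 1. There were 199 called higher at 24 h and not at 48 h, with a median level over 6 arrays of -4.13, and 183 of these were still above 0 in fold change at 48 h. The second-slide array gave a higher level than the other 24 h array for 101 of the 199, and for 6057 of all 8660 lincRNA probes; its part in these calls was not tested. All 62 probes lower at 24 h and all 59 lower at 48 h were well above background on both control arrays. Only because of a single group did 443 probes pass the signal filter through the 24 h arrays, 474 through the control arrays and 263 through the 48 h arrays, and a difference between groups in these follows in part from the filter.

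From 24 h to 48 h no lincRNA probe and no other probe passed the adjusted threshold in either direction. At an unadjusted p under 0.05, 1143 lincRNA probes (13.2%) and 13.8% of other probes differed at any fold. With at least 2-fold, 203 were lower at 48 h than at 24 h and 20 were higher, which is 2.34% and 0.231% against 1.64% and 0.824% over all probes and 1.4% and 1.02% of other probes. Of the 203, 190 were well above background on both 24 h arrays and 91 on neither 48 h array.

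The regions with the largest rise at both times lay at known genes. On chromosome 18, the 3 reverse-strand probes of chr18:70400082-70404236 overlapped Dynap, a gene for a membrane protein known to bind dynactin, and all 3 rose, with log2 fold changes of 5.26 to 5.53 at 24 h and 5.73 to 5.98 at 48 h. The brightest of them read -1.07 and -0.862 on the control arrays, 4.11 and 4.54 at 24 h, and 4.27 and 5.27 at 48 h. The changes were 5.29 and 5.73 (SE 0.353, adjusted p = 0.0031 and 0.00206). This probe has the same 60 bases as the array's own Dynap probe, which changed by 5.24 and 5.74.

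At Trim30c, one of the Trim30 family of tripartite motif ubiquitin ligases, the 4 tested reverse-strand probes of chr7:111526943-111545093 and chr7:111530578-111539097 all rose, by 2.35 to 5.65 at 24 h and 3.09 to 6.47 at 48 h on the log2 scale. The probe in capitals above, of the wider region, read -5.2 and -4.2 in controls, -0.462 and -0.0696 at 24 h and 0.219 and 0.781 at 48 h. Control replicate 1 and 2 differed by a full log2 unit, and the changes were 4.44 and 5.2 (SE 0.383, adjusted p = 0.00518 and 0.00301). The probe upstream of it, of the narrower region, read -3.68 and -3.78, then -1.72 and -1.03, then -0.85 and -0.309, a change of 2.35 and 3.15 (SE 0.291, adjusted p = 0.0116 and 0.00558), which was not called at both times without either control array. Another probe of that region was not well above background in controls and was at least 13.6-fold higher at 24 h and at least 24.0-fold higher at 48 h. A bound of this kind sets the stimulated arrays' mean against the lowest signal counted as well above background on the control arrays, or the control's own where higher. On the forward strand of the wider region only 1 of 4 tested probes rose, with 1.20 and 1.26. The gene probes nearby moved the same way, Trim30c by 3.18 and 3.95 and Trim30a by 6.04 and 6.85, and the lowest of the printed lincRNA probes is base for base the Trim30c probe, with 2.58 and 3.09.

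The Ifi200 cluster, a row of genes for interferon-inducible DNA-binding proteins, held 24 of the 111 probes that rose at both times. In 4 lincRNA regions between chr1:175653557-175671940 and chr1:175705225-175717250, all 16 tested reverse-strand probes rose, by 1.85 to 6.99 at 24 h and 2.22 to 7.38 at 48 h, and 8 of 10 on the forward strand. The brightest probe of chr1:175660642-175671878 read -3.17 and -2.59 in controls, 1.07 and 1.26 at 24 h and 1.55 and 2.10 at 48 h. It rose by 4.04 and 4.71 (SE 0.272, adjusted p = 0.00315 and 0.00181). One probe of chr1:175705225-175717250 was not well above background in controls and was at least 61.2-fold higher at 24 h and at least 80.2-fold at 48 h. The pair printed above with 34 shared bases changed by 3.88 and 4.69 and by 5.32 and 5.77. Gene probes of the cluster rose as well, Ifi207 by 3.48 and 4.40 and the Ifi204 probes by 1.60 to 1.72 and 1.84 to 1.98.

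**Figure D2:**
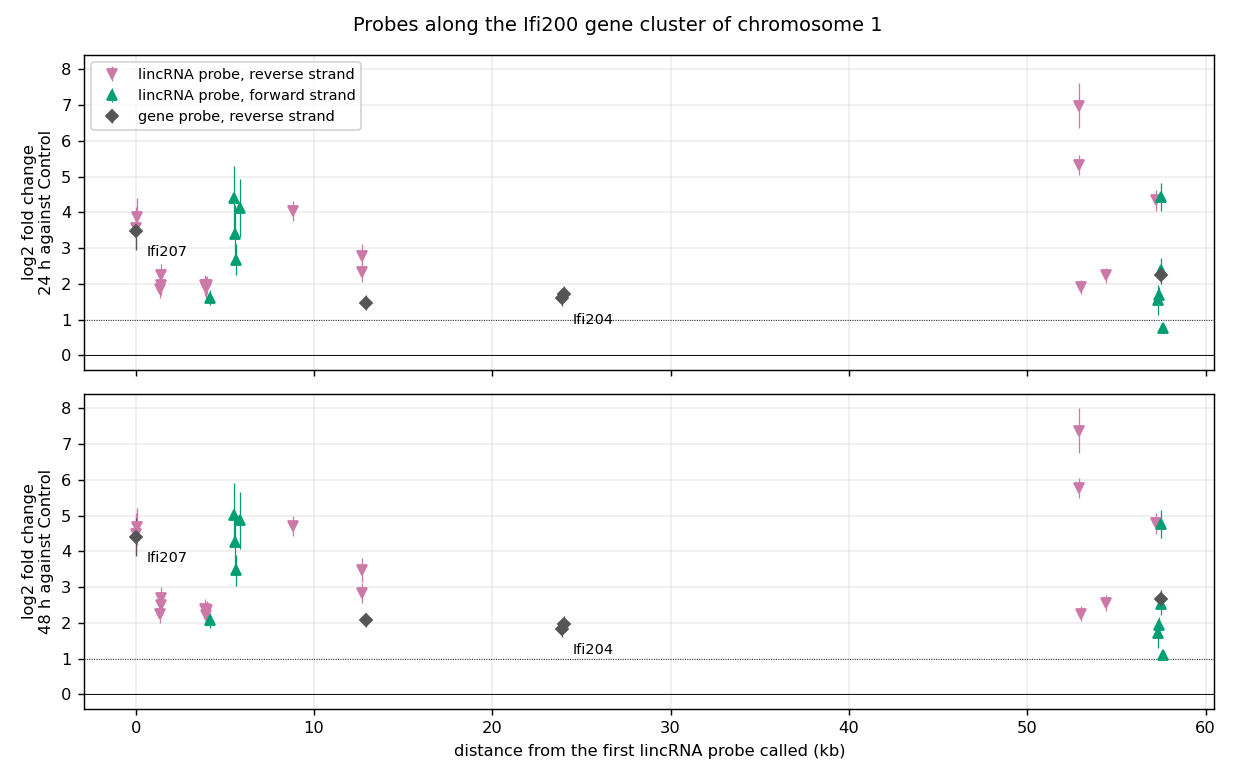
Log2 fold change against Control at 24 h (top) and 48 h (bottom) of each tested lincRNA probe, by strand, and gene probe of the Ifi200 cluster, by distance in kb from its first called lincRNA probe; bars are SE and the dotted line is 2-fold. At 48 h the 16 reverse-strand lincRNA probes lay between 2.22 and 7.38.

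A smaller group stood beside Samd9l, whose protein is known as a brake on the growth of blood cells. The reverse-strand probe of chr6:3333825-3349525, printed above, read -3.76 and -3.67 in controls, -1.06 and -1.03 at 24 h and -0.69 and -0.447 at 48 h. Replicates were close, with changes of 2.67 and 3.15 (SE 0.132, adjusted p = 0.00194 and 0.00123), and the forward-strand probe of the same region rose by 2.25 and 2.52. At chr6:3283191-3284581, 37.8 kb from the gene, the brighter of 2 reverse-strand probes was below the background limit in controls and was at least 7.63-fold higher at 24 h and at least 10.3-fold higher at 48 h. Samd9l itself changed by 3.11 and 3.61. The call of the farther region was lost without either control array or 24H CSF1 replicate 2.

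Next to Slc26a11, which encodes an anion transporter, regions chr11:119250824-119286324 and chr11:119254413-119296960 had all 6 forward-strand probes called, with 1.24 to 2.66 at 24 h and 1.21 to 3.21 at 48 h, and 2 of 3 on the reverse strand. Slc26a11 changed by 0.949 and 1.45 and was called at 48 h but not at 24 h (adjusted p = 0.0945 and 0.0372). Of 2 forward-strand probes at this locus that are not lincRNA probes and have no gene symbol, 1 rose at both times, by 1.31 and 1.58. The other changed by 0.928 and 0.324 and was not called. In the order of RefSeq genes on GRCm38, Rnf213 follows directly after Slc26a11. The locus is named by the nearest gene probe, and whether the regions lie inside Rnf213 was not tested. Together the Ifi200, Trim30 and Slc26a11 loci held 37 of the 111 probes (33.3%), and the other 74 lay elsewhere.

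Some of the most changed regions had a nearest gene that was not called. On the reverse strand of chr18:5162836-5165729, 2 of 3 probes rose. The brightest of the 3, with a mean level of -0.405, changed by 0.691 and 0.275 and was not called. The brighter of the 2 that rose was not well above background in controls, where it read -6.88 and -4.86, and it read -1.39 and -0.905 at 24 h and -2.56 and -2.73 at 48 h. It was at least 12.7-fold and at least 4.48-fold higher, while Svil, the gene of the actin-binding protein supervillin 43.8 kb away, changed by 0.0152 and 0.00182. The call of this probe at both times was lost with quantile normalization and without any 1 of the stimulated arrays. A wider region, chr18:5119300-5181600, spans this one and lies 0.254 kb from Svil. All 4 of its tested reverse-strand probes were called higher at 24 h and 2 at both times, with median changes of 2.63 and 1.79. At chr1:85036677-85038530 the called reverse-strand probe read -6.38 and -6.70 in controls, -5.34 and -4.53 at 24 h, and -2.59 and -2.34 at 48 h. Only the 48 h arrays were well above background, so no fold is given at 24 h, and at 48 h it was at least 6.53-fold higher. A second probe of the region was at least 11.8-fold higher at 48 h, and the nearest gene, A530032D15Rik, changed by 0.166 and 0.240. Both probes passed the signal filter only through the 48 h arrays, so their rises follow in part from the filter. Of the alternatives, 7 of 12 ended the call at both times of the first probe, among them quantile normalization, normexp background correction and either control array left out.

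**Figure D3:**
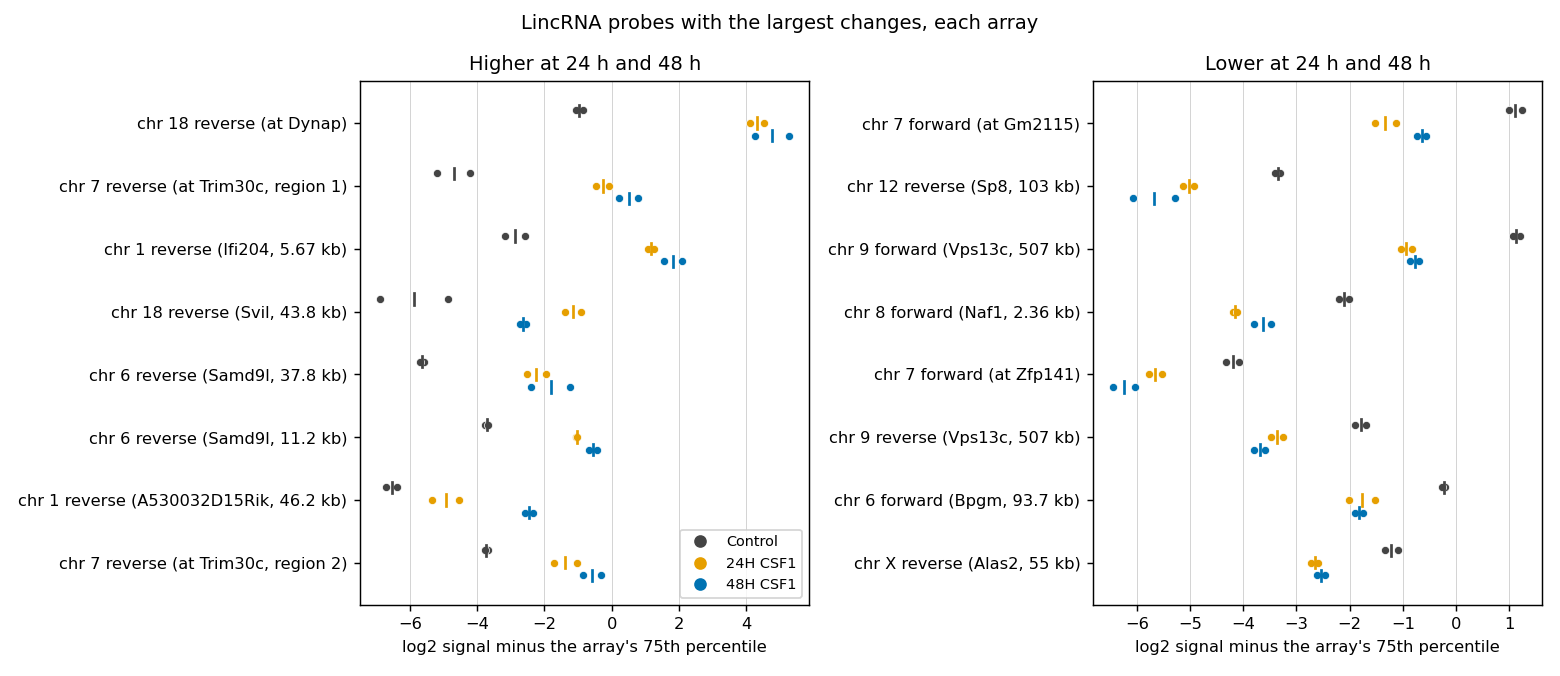
Normalised log2 signal (horizontal axis) on each Control, 24H CSF1 and 48H CSF1 array for the 8 largest rises and 8 largest falls at both times, 1 probe per region and strand, labelled with chromosome, strand, nearest gene and its distance. Points are single arrays and ticks the means of 2, and every stimulated point lies beyond both Control points of its probe, as the choice of probes required.

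Regions that fell at both times changed less, none of the 24 probes by over 4-fold at both. The region with most probes was chr7:91558475-91733625, where all 5 tested forward-strand probes fell, by 1.96 to 2.69 at 24 h and by 1.52 to 1.92 at 48 h. The printed probe read 0.991 and 1.24 in controls, -1.13 and -1.53 at 24 h, and -0.563 and -0.726 at 48 h, closer to controls at the later time (-2.44 and -1.76, SE 0.185, adjusted p = 0.0038 and 0.00798). It was not called at both times without Control replicate 2 or without 48H CSF1 replicate 2. The region overlaps Gm2115, which changed by -2.19 and -1.81.

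Both strands of chr9:68349343-68411643 fell, with no probe of a protein-coding gene placed within 100 kb. A gene whose probe lies farther off can still reach this stretch. The forward probe printed above read 1.20 and 1.07 in controls, -0.829 and -1.04 at 24 h, and -0.698 and -0.862 at 48 h. The changes were -2.07 and -1.91 (SE 0.139, adjusted p = 0.00315 and 0.00288). A second forward probe changed by -2.03 and -1.96, while the 2 others tested, about 6 kb farther along the region, read 0.593 and 0.226, and 1.46 and 0.994, and were not called. The brightest reverse probe changed by -1.57 and -1.90, and lost its call at both times with normexp correction.

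The remaining regions with the largest falls were 5. The probe of chr8:69416817-69417583 lies 2.36 kb from Naf1, a factor for the assembly of small nucleolar RNA particles, and changed by -2.05 and -1.53 while Naf1 changed by -1.41 and -1.39. The 2 others tested in the region fell at 24 h, with -1.26 and -1.54, but were not called at 48 h (-0.909 and -0.99). The probe of chr6:34548561-34612216 changed by -1.54 and -1.59, and Bpgm, the bisphosphoglycerate mutase gene 93.7 kb away, by -0.953 and -0.76, under 2-fold. At chrX:146945573-146950036, 1 of 3 tested probes fell, by 1.44 and 1.33, and the other two read 0.038 and -0.110 at 24 h. On the reverse strand of chr12:119836655-119984828 and the forward strand of chr7:49715933-49771497 the called probe was below the background limit on all stimulated arrays, which gave at least 2.02-fold and 2.68-fold lower, and at least 1.13-fold and 1.60-fold lower. Both called probes passed the signal filter only through the control arrays, so their falls follow in part from the filter. The called probe was 1 of 3 tested probes on chromosome 12, and 1 of 6 and the dimmest on chromosome 7, where the other 5 read -0.408 to 0.280 at 24 h and -0.631 to 0.026 at 48 h. Without Control replicate 2 the calls of the last 2 and of chr6:34548561-34612216 were lost, and with normexp correction those of all but chr6:34548561-34612216. These were not the only losses. Of 12 alternatives, 8 kept the call at both times for chr6:34548561-34612216, 7 for the chromosome 12 probe and 8 for the chromosome 7 probe.

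Where several probes of a region strand could be compared, they often disagreed. Of 2281 region strands with at least 2 tested probes, 53 had a probe that rose at both times, 27 had 2 or more and in 16 every tested probe rose. For falls the numbers were 16, 3 and 1. Probes within 20 kb of each other formed 54 loci among the rises, of which 22 had several probes, and 15 among the falls, of which 3 did. With a single probe per region strand, the brightest, 34 rose and 6 fell at both times among 3705 tested. Of the 832 regions tested on both strands, 26 had a probe that rose at both times, 6 of them on both strands, and 5 had one that fell, 2 of them on both. Over these 832 regions the median changes of the strands correlated with r of 0.342 at 24 h and 0.427 at 48 h, a description over regions that share arrays.

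Some lincRNA probes were copies of other probes of the array. There were 79 with exactly the bases of another probe, and for the 49 pairs with both tested the log2 fold changes correlated with r of 0.969 at 24 h and 0.914 at 48 h. The median difference in level within such a pair was 0.0811 and the largest 0.57. Of the 3 lincRNA probes of these pairs called at both times, 2 had a partner called too. Among the 111 probes that rose at both times, 16 held a stretch of 20 or more bases in common with another lincRNA probe and 5 with another probe of the array.

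By position in the files, 216 of the 3555 regions (6.08%) held a probe of a protein-coding gene, 1571 lay within 20 kb of one and 2923 (82.2%) within 100 kb. The label intergenic was thus not met by all regions. Among the 58 regions that rose at both times, 10 held such a probe (17.2%), on the same strand in 8, and among the 15 that fell, 2 did.

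The nearest tested gene within 100 kb was called higher at both times for 43 of 88 lincRNA probes that rose (48.9%), from 15 of 42 regions, and for 231 of 6356 that were called neither way (3.63%). On the strand of the lincRNA probe stood 31 of the 43. The 43 include lincRNA probes with the same bases as the Dynap and Trim30c probes they were paired with. Others lay in regions that hold the gene's probe on their own strand, as at Ifi207 and Herc6, and can report that gene's transcript. Probes of a locus also count separately, and the Ifi200 cluster held 24 of the 111 probes that rose. The shares thus do not measure neighboring genes alone, and shares without such pairs were not tested. For falls, 6 of 18 probes (33.3%), from 2 regions, had a gene called lower, against 79 of 6356 (1.24%). Gm2115, a gene paired with such falls, also has its probe inside the lincRNA region on the same strand. Over region strands and their genes, the changes correlated with r of 0.292 at 24 h and 0.318 at 48 h on the same strand (n = 1411) and 0.0555 and 0.108 on opposite strands (n = 1271), where both members of a pair come from the same arrays.

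Beyond the loci above, the pairs that rose together were these. Herc6, a ubiquitin ligase of the HERC family, lay inside chr6:57583950-57624216, where a forward-strand probe read -3.07 and -3.03 in controls, -1.49 and -1.33 at 24 h, and -0.0268 and 0.538 at 48 h. The level stepped up from control to 24 h and again to 48 h, with changes of 1.64 and 3.31 (SE 0.208, adjusted p = 0.012 and 0.00217) beside 1.61 and 2.42 for Herc6, and the 24 h call was lost when either control or either 24 h array was left out. Rtp4, a chaperone of G-protein-coupled receptors, changed by 5.55 and 6.37, and its region at chr16:23534663-23535172, 78.5 kb off, by 1.36 and 1.37. Dusp5, a nuclear phosphatase of ERK, changed by 2.21 and 1.28 and chr19:53624826-53625580, 9.09 kb away, by 1.98 and 1.12. Abcc4, an efflux transporter, changed by 1.90 and 1.69 and chr14:118774481-118873242 by 1.04 and 1.11. Speer4d and Gm17019 and their regions on chromosome 5 completed the set. At 24 h alone, 1 of 2 tested probes of chr9:88581073-88614403 was at least 2.01-fold higher, beside Mthfsl with 1.01. It passed the signal filter only through the 24 h arrays. In the overlapping region chr9:88575075-88611650, which holds the Mthfsl probe, 2 of 5 forward and 2 of 3 reverse probes rose at both times. Mthfsl itself read 0.797 at 48 h and was not called there.

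Other regions changed while their nearest gene was not called the same way. At chr15:74474704-74474770 the probe rose by 2.82 and 2.33 while Arc, an immediate early gene of neurons 24.8 kb away, changed by -0.235 and 0.0555. At chr15:101084597-101095097 it rose by 2.03 and 1.31, with Nr4a1, an immediate early nuclear receptor, at 0.129 and 0.392. At chr10:120069727-120136259 the rise was 1.29 and 1.33, and Msrb3, a methionine sulfoxide reductase, read -0.947 and -0.939. In chr17:35080914-35090009, 3 of 7 tested reverse-strand probes and 1 of 9 forward-strand probes fell at both times, with strand medians of -0.957 and -1.49 reverse and -0.269 and -0.197 forward, and Neu1, the lysosomal sialidase, read 0.373 and 1.05 and was called higher at 48 h (adjusted p = 0.0353). These 4 were chosen after their values were seen.

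**Figure D4:**
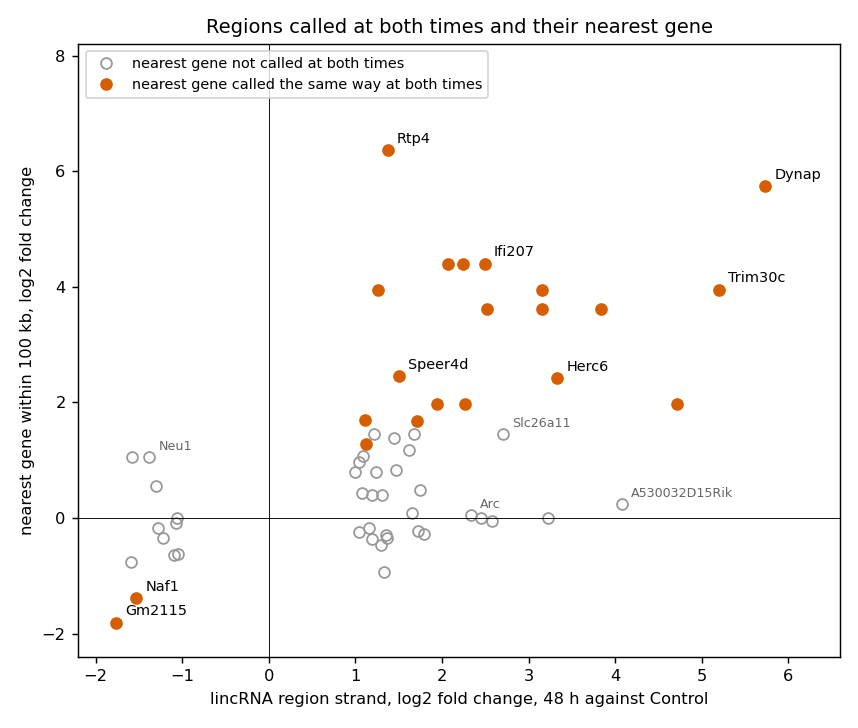
Log2 fold change at 48 h against Control of each region strand called at both times (horizontal axis) and of its nearest tested gene within 100 kb (vertical axis). Filled points are pairs whose gene was called the same way at both times, such as Dynap (5.73 and 5.74, from probes with the same bases). Open points include A530032D15Rik, at 4.08 and 0.24.

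Strongly changed genes also stood beside lincRNA probes that were not called. Cdkn1a, the gene of the cell cycle inhibitor p21, changed by 4.59 and 3.53 (adjusted p = 0.00194 and 0.00233). The file's lincP21 probe at chr17:29194418-29215906 read -4.88 and -4.50 in controls, -3.99 and -3.70 at 24 h, and -3.81 and -3.90 at 48 h. It was below the background limit in controls and at least 1.72-fold and 1.7-fold higher, with adjusted p = 0.0431 and 0.0461, so it missed the 2-fold rule. The other region beside Cdkn1a, chr17:29192453-29216073, changed by -0.0101 and -0.0218. Around Socs3, the feedback inhibitor of cytokine receptors, which changed by 3.74 and 2.91, the brightest reverse-strand probes of 3 regions changed by 0.0273 to 0.218 at 24 h. Dimmer reverse-strand probes of these regions ranged from -0.0983 to 1.02 at 24 h. The forward-strand probes of chr11:117835849-117842574 ranged from 0.017 to 1.98, and none of these was called. The tested forward-strand probe of chr11:117768049-117807949 was called at 24 h alone, with 1.07 (adjusted p = 0.0408), and lost the call under 10 of the alternatives, median centring and each array left out among them. It passed the signal filter only through the 24 h arrays.

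Near Ptgs2, the inducible cyclooxygenase gene (2.34 and 1.28, called at 24 h only), the probe of chr1:152001112-152012796 changed by 0.665 and 0.134 and was not called. Beside Hox genes, which pattern the body axis, the brightest probes of the named region strands changed by -0.116 to 0.219 at 24 h and -0.038 to 0.584 at 48 h, dimmer probes of these regions ranged from -0.678 to 0.784 at 24 h, and none was called, although Hoxb4 changed by 1.68 and 1.18. The brightest probes of the region strands near Myc, which itself read -0.373 and -0.324, changed by 0.134 to 0.961 at 24 h and dimmer ones by -1.15 to 0.00657, and none was called.

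Of lincRNAs with a name of their own, Malat1, which the files call NEAT2 and which is known for its place in nuclear speckles, was the only one with a call at either time. Its 3 probes at chr19:5795689-5802671 fell at 24 h by 1.03 to 1.27. The printed probe read 0.847 and 0.507 in controls, -0.711 and -0.465 at 24 h and -0.221 and -0.541 at 48 h, with no overlap (-1.27 and -1.06, SE 0.192, adjusted p = 0.0186 and 0.0301). The array's Malat1 probe has the same bases and changed by -1.31 and -0.946. At 48 h the other two of the 3 missed the threshold of fold or p, with -0.962 and -0.852. The 24 h call was lost when either control array or either 24 h array was left out, with adjusted p of 0.0588 to 0.0845.

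NEAT1, the scaffold of paraspeckles, lay close by at chr19:5842306-5845476 and its probes lay above 0 in change. The 5 probes changed by 0.264 to 0.430 at 24 h and 0.618 to 0.811 at 48 h, where the lowest adjusted p was 0.0265, and none reached 2-fold. The 5 TUG1 probes changed by -0.274 to -0.154 at 24 h and -0.162 to 0.0788 at 48 h. NRON, a repressor of NFAT import, changed by -0.0418 and 0.116 at 24 h over 2 probes, and HOTAIR, a transcript of the HoxC locus, by 0.206 over 1 of 5. For the imprinted H19 and KCNQ1ot1, 3 and 4 probes were tested and none was called, nor was any of PINC, BRN1-A and XIST, and no TSIX probe passed the signal filter. Of 45 noncoding RNAs listed by symbol, 30 had another kind of probe on the array and 28 were tested. Malat1 was lower at 24 h, and Snhg8 was higher at 24 h from below the background limit, with none called at 48 h. Snhg8 passed the signal filter only through the 24 h arrays.

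**Figure D5:**
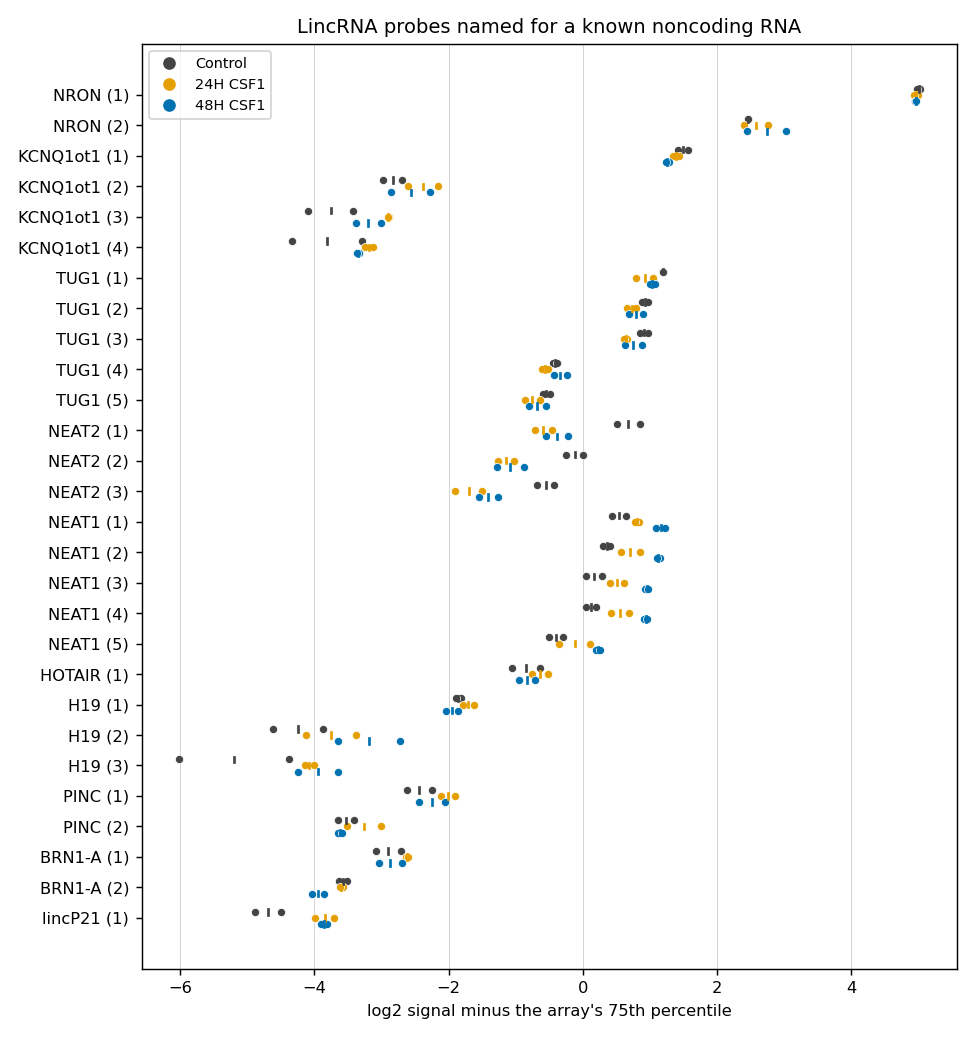
Normalised log2 signal (horizontal axis) of each tested probe of the named lincRNAs other than XIST, with points for single arrays and ticks for the means of 2. For the 3 NEAT2 (Malat1) probes every stimulated point lies below both Control points, and for 4 of the 5 NEAT1 probes every stimulated point lies above both.

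Among probes past an unadjusted p of 0.05 and 2-fold, those with the largest differences between the times were dim, and none passed the adjusted threshold. At chr1:85036677-85038530 both reverse probes were higher at 48 h than at 24 h, by 2.47 and 2.25 (limma unadjusted p = 0.000273 and 0.0101). The forward probe of chrX:102222494-102267068 was higher by 2.51 (unadjusted p = 0.0372), but its 48 h arrays read -1.92 and -4.88 and so lay far apart. The largest falls among them were of 2.60 at chr12:110896603-110940553 (unadjusted p = 0.00654), of 2.32 at chr2:145492995-145523670 (0.00156) and of 2.30 at chr18:36072785-36076426 (0.0157), and each was well above background on both 24 h arrays and no other. These falling probes passed the signal filter only through the 24 h arrays, and the rising ones only through the 48 h arrays. Their differences and p-values therefore follow in part from the filter. The chromosome 2 region lies 25322 bases from Slc24a3, the gene of a sodium, potassium and calcium exchanger, which changed by -1.55 and -1.42 against Control, where the lincRNA probe changed by 1.86 and -0.462.

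The brightest lincRNA probes in unstimulated cells were not called at either time. The brightest of all, in chr17:39982023-39983277, read between 9.66 and 9.81 on the 6 arrays, and the next, in chr6:83368261-83407280, read 9.17 to 9.36. The remaining 3 of the 5 brightest were in chr17:39960567-39992817, in chr17:39983902-39985688 and again in the first region. Their changes ranged from -0.0332 to 0.0912 at 24 h and from -0.107 to 0.0793 at 48 h. The chromosome 17 stretch is known to hold a copy of the ribosomal RNA precursor in the mouse assembly.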

How the data were processed

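RNA was labelled with Cy3 by low input Quick Amp WT labeling and hybridized to SurePrint G3 mouse 8x60K arrays, and scanned spots were read with Agilent Feature Extraction 11.0.1, per the labels and methods. The deposited files give each spot's background-corrected signal intensity, and the authors' value table gives log2 values of the same arrays, used as an alternative only. From the intensity, log2 minus each array's 75th percentile was taken over non-control spots, outlier spots were dropped and spots of a probe averaged. Probes with a signal well above background on each array of some group were fitted with limma 3.58.1 in R 4.3.3 (lmFit, eBayes, 3 residual and 2.38 prior degrees of freedom, Benjamini-Hochberg over all probes tested). A call needs an adjusted p under 0.05 and at least 2-fold. The number of arrays, 6, limits the precision.

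Regions and strands come from the probe names and positions from the files (mm9). Genes were named through RefSeq of GRCm38.p6, which matched 29671 of 39430 other probes. The distance of a gene from a region is that of the gene's probe, not of the gene's ends. The regions named are the 8 largest rises and 8 largest falls at 24 h and 48 h alike whose stimulated arrays all lay past the controls (brightest such probe per region strand), the 3 largest rises and falls between times at an unadjusted p under 0.05 and 2-fold, the 5 brightest, the 8 nearest to a gene called alike, and those nearest to a preset gene list. On simulated data with 200 probes of 34814 changed 4-fold, 67% were recovered at 24 h and 68.5% at 48 h. All other simulated probes had no difference between groups, unlike the real arrays, so these shares need not hold for the calls reported here. Members and lists were chosen with earlier results of these data known. Alternatives were another normalization (quantile, median), normexp, other filters and thresholds, an intensity trend, 1 probe per region strand, a replicate block and leaving out each array. Some of the epithelial marker genes are not reported here.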

Additional observations from a re-analysis of the deposited data

How the results depend on the processing

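Of 200 values under alternatives of the main counts, medians and shares, 127 stayed close and 73 moved, and no called value turned its direction. Calls are given as higher and lower, in the order 24 h, 48 h, both times. Quantile normalization gave 125 and 142, 113 and 74, and 79 and 36. Median centring gave 176 and 188, 124 and 105, and 85 and 72, normexp correction 65 and 21, 60 and 25, and 47 and 12. Without the signal filter there were 143 and 19, 60 and 16, and 40 and 9. Probes well above background on all 6 arrays gave 127 higher at 24 h, 91 at 48 h and 67 at both. The adjusted p at any fold gave 544 and 173, 248 and 208, and 188 and 98, and 1 probe per region and strand 88 and 22, 41 and 18, and 34 and 6. The unadjusted p with 2-fold gave 93 lower at 48 h.

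Between the times, normexp called 3 higher and an intensity trend 3 higher and 3 lower, against 20 and 203 at the unadjusted p with 2-fold. Leaving out 1 array gave 80 to 280 higher and 18 to 68 lower at 24 h, 69 to 124 and 27 to 56 at 48 h, 48 to 71 and 11 to 43 at both times, and 0 between the times. An array alone in its group was assumed to vary like the others.

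The median log2 fold change of the lincRNA probes was -0.161 at 24 h, -0.109 at 48 h and 0.0552 between the times with median centring, and 0.336, 0.0629 and -0.233 without the filter. Quantile normalization gave -0.0366 between the times. Leaving out 1 array gave 0.0347 to 0.214 at 24 h, -0.0949 to 0.0727 at 48 h and -0.223 to -0.0437 between the times. The cause of these shifts was not tested.

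The arrays share replicate numbers, but the deviations of same-numbered arrays correlated by 0.109, 0.0956 and 0.171, so the numbers were not taken as a pairing. With a replicate block the counts were 293 and 63, 157 and 62, and 113 and 25, with 0 between the times. For the named probes, 1806 of 1920 values kept their side of the threshold, 105 lost and 9 gained a call, and none reversed. Signal over background limits the dim probes, since 348 of the 8660 tested were above it on neither control array.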
